A study of Mus musculus with 6 samples.

Results

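From the 24354 genes in the table of expression values, 10 that encode secreted growth factors are described here. Choroid plexus (ChP) cells can release such factors into cerebrospinal fluid (CSF) or the tissue around it. The 10 are not all secreted growth factors in the table. The 10 were chosen by gene symbol, with earlier results of these data known, and all are described: midkine (Mdk), pleiotrophin (Ptn), Vegfa, Vegfb, Pdgfa, Tgfb1, Tgfb2, Tgfb3, Hbegf and Inhba. All 10 were in the table, and 7 of them had a mean above the filter on low values and were tested between adult and embryonic ChP. No value here shows to which side of the epithelium a protein was released. Between the ages the leading growth factor of the 10 changed: Mdk had the highest level of the 10 in every embryonic library and Tgfb2 the highest in every adult library.

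The ChP is a sheet of secretory epithelium over vessels and stroma within each brain ventricle, and it makes most of the CSF. Growth factors released by such an epithelium act through receptors on progenitors, vessels and stroma, or on the epithelium itself. Mdk and Ptn bind heparin and share receptors, VEGFs act on endothelium, PDGF-A acts on Pdgfra-bearing cells, and TGF-βs and activins are cut from larger precursors and signal through paired receptor kinases to SMAD proteins.

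The study compared ChP of adult mice, aged 60 days by the labels, with that of embryos at embryonic day 16.5 (E16.5), with 3 samples at each age. All 6 samples carried the genotype FoxJ1:cre x bacTRAP (EGFP:L10a), none was treated, and collection was at the same hour of the morning. Cre recombinase under the Foxj1 promoter, which is active in ciliated epithelia including ChP and ependyma, switches on a green-fluorescent ribosomal protein L10a, so that translating ribosome affinity purification (TRAP) pulls down the mRNA on tagged ribosomes. By the methods each sample was pooled lateral ventricle ChP, from several mice or several litters, while the series design speaks of 3 mice per age. The number of animals behind a replicate is therefore not settled, the methods include both sexes but give none per sample, batch is not given, and p-values measure the spread between these samples. Fewer cells of a type and less mRNA per cell cannot be told apart in such samples.

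Values are FPKM, fragments scaled to transcript length and to the mapped reads of the library, so levels of different genes can be compared per length. The adult libraries were shallower: by the spacing of the lowest values in the table, 1 read in 1 kilobase was worth 0.114 to 0.324 FPKM in the adult libraries and 0.0637 to 0.081 FPKM in the E16.5 libraries. Of the 11601 genes tested, 10.34% to 36.42% were listed at 0 in the adult libraries and 3.681% to 4.017% in the E16.5 libraries (36.42% in adult replicate 3). A listed 0 can be a failed estimate, since 24 to 46 of 76 cytosolic ribosomal protein genes in the adult libraries and 9 to 13 in the E16.5 libraries were at 0, and Ttr, the defining secretory product of ChP epithelium, was listed at 0 in all 3 E16.5 libraries and at 20900 to 31300 FPKM in the adult. The other 13 of 14 epithelial markers were above 0 in all 6 libraries. A single annotated microRNA gene, Mir6236, took 32.67% to 51.74% of all FPKM in the adult libraries and 13.26% to 15% in the E16.5 libraries. On log2(FPKM + 1), the median change of all genes tested, adult minus E16.5, was -0.86.

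In the test across all genes (limma with Benjamini-Hochberg adjustment and a threshold of 0.05), 1 of the 7 tested growth factors was higher in the adult, 2 were higher at E16.5 and 4 were not called. Of all genes tested, 2.12% were called higher in the adult and 8.83% higher at E16.5. The called growth factors were Tgfb2 for the adult and Mdk and Tgfb3 for E16.5. Every adult value lay above every E16.5 value for 1 growth factor (Tgfb2), as for 7.39% of all genes tested, and below for 3 (Mdk, Tgfb3 and Vegfb), as for 31.0% of them. The median log2 change of the 7 was -1.31. With 3 samples against 3, an exact two-sided permutation test of a single gene cannot go below p = 0.1, and it gave this value for Mdk, Tgfb2, Tgfb3 and Vegfb.

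**Figure D1:**
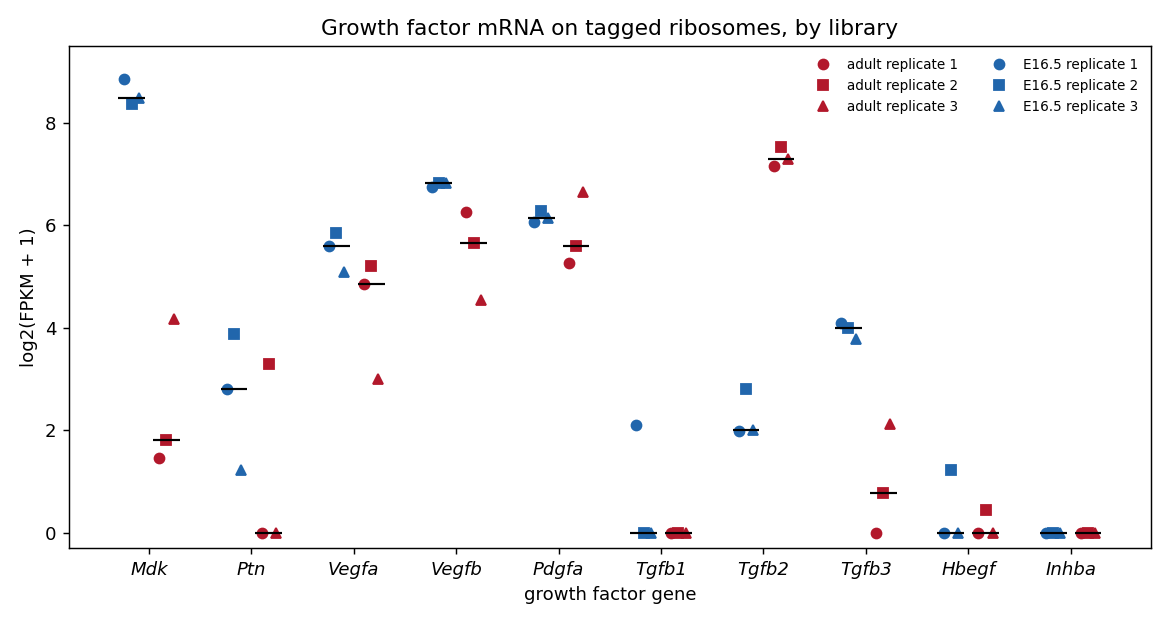
Level of each of the 10 growth factors in each library, as log2(FPKM + 1), with adult libraries in red, E16.5 libraries in blue and a black line at the median of the 3 libraries of an age. Mdk sits at the top of the E16.5 points (327 to 461 FPKM) and Tgfb2 at the top of the adult points (142 to 183 FPKM), while Inhba is at 0 throughout.

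Mdk is a small heparin-binding cytokine, widely made in mid-gestation embryos, that promotes growth and survival of neural progenitors. Its level was 461, 327 and 357 FPKM in E16.5 replicates 1, 2 and 3. In adult replicates 1, 2 and 3 it was 1.75, 2.52 and 17.0 FPKM. The ages were far apart, and within the adult age replicate 3 stood above the other two. The means were 382 ± 70.4 FPKM at E16.5 and 7.08 ± 8.57 FPKM in the adult (SD, n = 3 each), a level 53.9-fold lower in the adult. The lowest E16.5 library was still 19.3-fold above the highest adult library. On the log2 scale Mdk fell by 6.08 (SE 0.69, 95% interval -7.69 to -4.48, limma adjusted p = 0.00464), and its change relative to the median of all genes was -5.23. It was called in 16 of 18 alternative settings and lost the call without E16.5 replicate 1 (adjusted p = 0.0503) or E16.5 replicate 2 (adjusted p = 0.0559). Without adult replicate 3 the ratio of means was 179-fold, and leaving out any of the other libraries gave 39.1-fold to 57.7-fold. The adult values stand for roughly 6, 19 and 45 reads, against 4384 to 4860 reads in the E16.5 libraries, if all came from the longest transcript. Mdk lies at chr2:91929805-91932297 on the minus strand (mm10), and of its 1325 different stretches of 50 bases 2 also occur in another gene, the pseudogene Mdk-ps1.

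Among 14 genes of neurons and progenitors, 9 were tested and 2 were called, Vim and Map2, both higher at E16.5 as Mdk was. Of all genes tested, 8.83% were called in this direction. The list summed to 303, 190 and 249 FPKM in E16.5 replicates 1, 2 and 3, highest in the library with the highest Mdk. In adult replicates 1, 2 and 3 it summed to 31.7, 19.2 and 4.5 FPKM, lowest in the adult library with the highest Mdk. Vim, an intermediate filament of progenitors that other immature cells also make, was at 141, 144 and 199 FPKM at E16.5 and at 21.6, 0.553 and 0 FPKM in the adult. Sox2, a progenitor transcription factor that ChP epithelium may also hold, was at 25.3 to 26.4 FPKM and at 0.145 to 9.81 FPKM and was not called, and Neurod6 and Eomes were listed at 0 in all 6 libraries. Of 8 red blood cell genes, 7 were in the table, 4 were tested and 2 (Hba-a2 and Hbb-bs) were called higher at E16.5, and they summed to 54.1 to 324 FPKM at E16.5 and to 0 to 6.49 FPKM in the adult, with Hbb-bh1 among those at 0 in all. E16.5 replicate 1, the library with the highest Mdk, stood apart in neuronal genes named here after their values were seen: Tubb3 was at 36.2 FPKM there and at 0.623 and 0.134 FPKM in E16.5 replicates 2 and 3, and Stmn2 was at 25.3 FPKM and listed at 0 in the other E16.5 libraries. Without E16.5 replicate 1 the ratio of the Mdk means was 48.3-fold. In adult replicate 3, where Mdk was highest among the adults, the 10 markers of oligodendrocytes and astrocytes summed to 73.0 FPKM, against 4.82 and 14.2 FPKM in the other adult libraries and 11.2 to 22.8 FPKM at E16.5. Of that list 5 genes were tested, none was called by limma (0 at an unadjusted p under 0.05 for the adult and 1 for E16.5), and Mbp, a myelin protein, made 58.7 FPKM of the sum in that library. The part of these cells in the level of Mdk was not tested.

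Ptn, the close relative of Mdk and likewise a heparin-binding cytokine, was at 5.96, 13.7 and 1.34 FPKM in E16.5 replicates 1, 2 and 3, at 8.8 FPKM in adult replicate 2, and listed at 0 in adult replicates 1 and 3. The ages overlapped, and the log2 change of -1.54 (SE 1.13, 95% interval -4.17 to 1.10) did not pass the test (limma adjusted p = 0.383). Mdk made up 96.0% to 99.6% of the pair at E16.5 but 22.3% in adult replicate 2, the one adult library where Ptn was listed above 0. Ptn lies at chr6:36714929-36810220.

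Tgfb2 encodes TGF-β2, which is secreted as a latent complex and acts in development of brain, heart and eye. Its level was 142, 183 and 155 FPKM in adult replicates 1, 2 and 3. In E16.5 replicates 1, 2 and 3 it was 2.98, 5.95 and 3.01 FPKM. No library of one age came near the other age, and the adult values lay close together. The means were 160 ± 21.1 FPKM in the adult and 3.98 ± 1.71 FPKM at E16.5 (± SD, with n = 3 each), 40.3-fold higher in the adult, and the lowest adult library was 23.9-fold above the highest E16.5 library. On the log2 scale Tgfb2 rose by 5.06 (SE 0.39, 95% interval 4.14 to 5.98, limma adjusted p = 0.00146), or by 5.92 relative to the median of all genes. Leaving out any library gave ratios of 35.8-fold to 53.5-fold. Roughly 2352 to 7891 reads stood behind the adult values and 181 to 459 behind the E16.5 values. No 50-base stretch of its transcripts occurs in a transcript of another gene. Tgfb2 was called in all 18 alternative settings, alone among the 10 growth factors.

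Tgfb2 lies at chr1:186622792-186705989 on the minus strand. The 250 bases before its RefSeq start (GRCm38, chr1:186705990-186706239, minus strand) are shown because Tgfb2 is the growth factor with the highest adult level, with matches to 2 searched motifs in capitals, the E-box CACGTG and the core promoter element TATAAA.

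Tgfb2 upstream: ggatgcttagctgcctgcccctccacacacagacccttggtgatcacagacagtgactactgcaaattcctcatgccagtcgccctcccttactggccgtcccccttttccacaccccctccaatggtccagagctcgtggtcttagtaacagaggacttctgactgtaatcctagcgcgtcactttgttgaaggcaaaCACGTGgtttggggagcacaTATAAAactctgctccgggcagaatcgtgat

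No annotated Tgfb2 exon overlaps this stretch. CACGTG, which reads the same on both strands, was at 51 to 46 bases before the start and TATAAA at 31 to 26 bases before it, and the 2 matches do not overlap. Searched on both strands in the 250 bases before each start, CACGTG was in 6.02% and TATAAA in 12.4% of the 32851 RefSeq windows. A GC box, GGGCGG, was in 32.7% of all windows and not in that of Tgfb2. RefSeq windows matched 7 of the 10 growth factors, with 9 windows. None of the other 6 had CACGTG, and 1 of them, Inhba, had TATAAA, while Pdgfa, Tgfb1, Vegfa and Vegfb had GGGCGG. Mdk and Tgfb3 were not matched, and windows on chromosome 18, where Hbegf lies, were left out of this match. These are matches of letters only.

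Tgfb3, the third TGF-β, went the other way from Tgfb2. It was at 16.1, 14.9 and 12.7 FPKM in E16.5 replicates 1, 2 and 3 (14.6 ± 1.72, SD, n = 3). In the adult it was at 0.708 FPKM in replicate 2 and 3.38 FPKM in replicate 3 and was listed at 0 in replicate 1. All adult values were below all E16.5 values. On the log2 scale Tgfb3 fell by 2.99 (SE 0.73, 95% interval -4.69 to -1.28, limma adjusted p = 0.0431), and its change relative to the median of all genes was -2.13. This call was close to the threshold: the direction was the same in all 18 alternative settings, but 6 of them kept the call, with adjusted p of 0.0114 to 0.185 over the 18. Of the 6 settings that left out 1 library, only the one without adult replicate 3 kept it, and without the other libraries the adjusted p went up to 0.151. Roughly 20 and 33 reads stood behind the adult values above 0. Of 12 mesenchymal marker genes, 9 were tested, and the list summed to 142 to 194 FPKM at E16.5 and 84.1 to 177 FPKM in the adult. Among the 9, 1 was higher at E16.5 (Ogn) and 1 higher in the adult (Pcolce), against 8.83% and 2.12% of all genes tested. The part of mesenchymal mRNA in the level of Tgfb3 was not tested. Tgfb3 lies at chr12:86056745-86079041.

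Tgfb1, the TGF-β best known from immune cells and vessels, was listed above 0 in a single library, E16.5 replicate 1, at 3.29 FPKM. Its mean was under the filter, so it was not tested (chr7:25687002-25705077). Macrophage genes, of which 3 of 12 were tested and none called by limma (0 also at an unadjusted p under 0.05), summed to 0.0695 to 7.36 FPKM in the adult and 0.584 to 8.48 FPKM at E16.5, with Aif1, Cd68, C1qc, Tyrobp and Fcer1g at 0 in all libraries. C1qa and Csf1r had the highest means of the list. C1qa was at 6.98, 0 and 2.78 FPKM in E16.5 replicates 1, 2 and 3 and listed at 0 in the adult. Csf1r was at 0.434, 0.327 and 3.58 FPKM in E16.5 replicates 1, 2 and 3 and at 0.0695 to 2.52 FPKM in the adult. The part of macrophages in the level of Tgfb1 was not tested. Within the TGF-β genes, then, the makeup differed between the ages in every library. Tgfb2 was 97.9% to 100% of the summed FPKM of Tgfb1, Tgfb2 and Tgfb3 in the adult libraries and 13.3% to 28.6% in the E16.5 libraries (exact permutation p = 0.1, the smallest possible). This share is taken within a library and does not depend on how libraries are scaled to each other. It does depend on listed zeros, which can be failed estimates. In the adult, Tgfb1 was listed at 0 in every library and Tgfb3 in replicate 1, the library with the share of 100%.

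Vegfb, a VEGF that binds Flt1 and is tied to fatty acid uptake and vessel survival, was the second most abundant of the 10 at E16.5. It was at 106, 112 and 113 FPKM in E16.5 replicates 1, 2 and 3 and at 75.6, 49.6 and 22.4 FPKM in adult replicates 1, 2 and 3. The ages did not overlap, but the adult values spread more than 3-fold. The means were 110 ± 3.81 FPKM and 49.2 ± 26.6 FPKM (SD, n = 3 each), and the log2 change was -1.31 (SE 0.45, 95% interval -2.35 to -0.27), which did not pass the test (limma adjusted p = 0.0978). Relative to the median of all genes its change was -0.45. Vegfb lies at chr19:6982473-6987651.

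Vegfa, the main growth factor of endothelium and one that maintains the fenestrated vessels of ChP, was at 47.4, 56.5 and 33.1 FPKM in E16.5 replicates 1, 2 and 3. In adult replicates 1, 2 and 3 it was at 27.9, 35.8 and 7.01 FPKM. The ages overlapped, with adult replicate 2 above the lowest E16.5 library and adult replicate 3 far below the rest. The log2 change was -1.16 (SE 0.61, 95% interval -2.59 to 0.27, limma adjusted p = 0.234), and the ratio of means, 1.94-fold lower in the adult, was 1.44-fold without adult replicate 3. Vegfa was 23.9% to 41.9% of the summed FPKM of Vegfa and Vegfb in the adult libraries and 22.6% to 33.6% in the E16.5 libraries (exact permutation p = 0.8). Vegfa lies at chr17:46016993-46032369. Of 12 endothelial markers, 4 were tested and none was called (0 also at an unadjusted p under 0.05 in limma), and they summed to 7.81 to 20.2 FPKM in the adult and 3.25 to 10.9 FPKM at E16.5, with Esam and Cd34 at 0 in all.

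Pdgfa, whose protein drives proliferation of oligodendrocyte precursors and stroma through Pdgfra, had the smallest fitted log2 change of the 7 tested on the deposited scale. It was at 65.7, 76.8 and 69.5 FPKM in E16.5 replicates 1, 2 and 3 and at 37.3, 47.3 and 99.8 FPKM in adult replicates 1, 2 and 3. The E16.5 values lay between the adult ones, with adult replicate 3 on top. The log2 change was -0.32 (SE 0.41, 95% interval -1.27 to 0.62, limma adjusted p = 0.606). Its direction was not stable: the mean at E16.5 was 1.15-fold that of the adult with all libraries, 1.67-fold without adult replicate 3 and 0.961-fold without adult replicate 1. The log2 change was 0.01 after median-ratio scaling and 0.09 after quantile normalization. Rescaled to the same sum it was -1.14 (limma adjusted p = 0.0832), and -0.48 when Mir6236 was left out of that sum. The interval leaves room for a change in either direction. Pdgfa lies at chr5:138976014-138997370.

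Hbegf, a membrane-anchored ligand of Egfr that is released by cleavage, and Inhba, the subunit of activin A, were listed at 0 in most libraries. Hbegf was at 0.363 FPKM in adult replicate 2 and 1.34 FPKM in E16.5 replicate 2, and was listed at 0 in the other 4 libraries. Inhba was listed at 0 in all 6 libraries (chr13:16011851-16031621). Neither was tested. A single read in the longest Inhba transcript would be worth 0.0184 to 0.0523 FPKM in the adult libraries and 0.0103 to 0.0131 FPKM in the E16.5 libraries. A listed 0 can also be a failed estimate, so these values set no upper limit on the level of Inhba.

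The order of the 10 genes by median level differed at the top. In the adult it ran from Tgfb2 through Vegfb and Pdgfa, whose ranges overlapped, to Vegfa and Mdk, whose ranges overlapped as well. Tgfb2 was separate from the gene next in order, Vegfb, in all libraries of that age, and Tgfb3, Hbegf, Inhba, Ptn and Tgfb1 followed with overlapping ranges. At E16.5 Mdk, Vegfb, Pdgfa, Vegfa and Tgfb3 followed each other with separate ranges, the range of Tgfb3 overlapped that of Ptn, and that of Ptn overlapped that of Tgfb2. Tgfb2 was thus 7th of the 10 at E16.5 and 1st in the adult, and Mdk was 1st at E16.5 and 5th in the adult.

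Mdk alone made up 65.1%, 53.8% and 60.5% of the summed FPKM of the 10 in E16.5 replicates 1, 2 and 3 and 0.616%, 0.767% and 5.57% in adult replicates 1, 2 and 3. Tgfb2 made up 49.9%, 55.8% and 50.9% in the adult libraries and 0.42%, 0.979% and 0.511% in the E16.5 libraries. Each of these shares separated the ages completely (exact permutation p = 0.1 for each, the smallest possible). The share of Pdgfa was 13.1% to 32.8% in the adult and 9.28% to 12.6% at E16.5, and that of Vegfb was 7.35% to 26.6% and 15.0% to 19.2% (exact permutation p = 0.1 and 0.9). The 10 genes together summed to 285, 329 and 305 FPKM in the adult libraries and 708, 608 and 589 FPKM in the E16.5 libraries, lower in every adult library (exact permutation p = 0.1). Unlike the shares, this sum depends on how libraries are scaled to each other, and the median log2 change of all genes tested was -0.86.

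**Figure D2:**
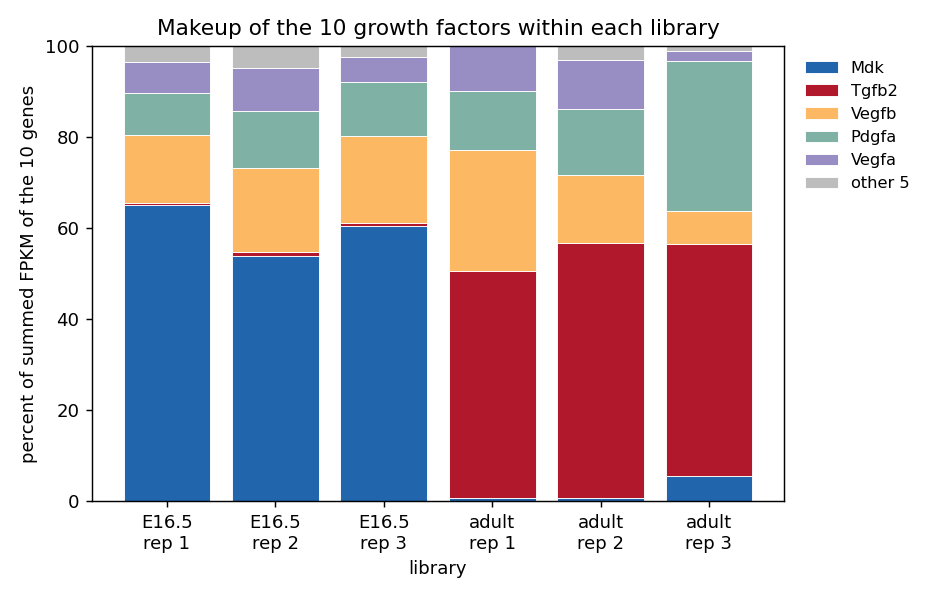
Share of each growth factor in the summed FPKM of the 10 genes, in percent, for the 3 E16.5 and the 3 adult libraries, with Tgfb1, Tgfb3, Ptn, Hbegf and Inhba joined as the other 5. Mdk fills 53.8% to 65.1% of the E16.5 bars and Tgfb2 fills 49.9% to 55.8% of the adult bars.

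The size of a change depended on how libraries were scaled to each other, and its direction did not for Mdk, Tgfb2, Tgfb3, Vegfa, Vegfb and Ptn. Over the deposited FPKM and 4 other scalings the median log2 change of all genes ran from -1.48 to 0.01. Relative to that median, Mdk was at -5.62 to -5.18, Tgfb2 at 5.81 to 6.11 and Tgfb3 at -2.14 to -2.01. Relative to it, Vegfb was at -0.87 to -0.39, Vegfa at -0.62 to -0.25, Ptn at -0.77 to -0.35 and Pdgfa at 0.08 to 0.59.

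**Figure D3:**
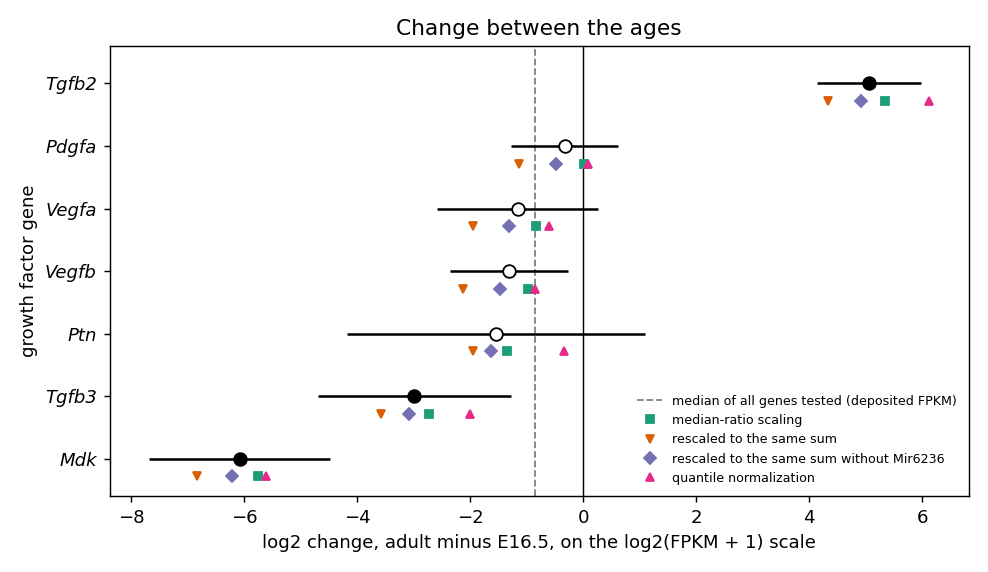
Log2 change of the 7 tested growth factors, adult minus E16.5, on the log2(FPKM + 1) scale, as circles with 95% intervals from limma, filled where the adjusted p was below 0.05, with the change under 4 other scalings below each and a dashed line at the median of all genes (-0.86). Tgfb2 lies far to the right (5.06) and Mdk far to the left (-6.08) under every scaling drawn. Pdgfa lies at -0.32, and at -1.14 to 0.09 under the other scalings.

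The genes whose pattern over the 6 libraries was most like that of a called growth factor were ranked by the root mean square difference of centred log2(FPKM + 1). For Tgfb2 they were Enpp2, Chdh and Cd9, each at a difference of 0.48. Enpp2, which encodes autotaxin, a secreted enzyme that makes lysophosphatidic acid and is abundant in ChP epithelium, was at 14900, 18700 and 16400 FPKM in the adult and 242, 303 and 274 FPKM at E16.5. For Mdk they were Ccdc81 and Gtf2a2 (0.85 each) and 0610010K14Rik (0.87). For Tgfb3 they were Rpl4 (0.21), Frmd4a and Mdp1 (0.22 each), where Rpl4, a ribosomal protein, was at 34.8, 68.3 and 147 FPKM in the adult and 439, 467 and 412 FPKM at E16.5.

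Of 20 other ligands of the same families in the table, 6 were tested, 6 were listed at 0 in all libraries, and none of those tested was called by limma in either direction, with 1 higher in the adult (Pdgfd) and 1 higher at E16.5 (Pdgfc) at an unadjusted p under 0.05, and the median log2 change was -0.87. Pdgfd, a ligand of Pdgfrb with the highest mean of them over the 6 libraries but not at E16.5, was at 4.49, 49.4 and 55.4 FPKM in the adult and 1.25, 4.72 and 1.79 FPKM at E16.5. Adult replicate 1 lay within the range of E16.5 (limma adjusted p = 0.0946). Pdgfc, named after its values were seen, is like Pdgfa a ligand of Pdgfra, and was at 23.2, 28.8 and 13.7 FPKM at E16.5 and at 6.17, 3.58 and 0 FPKM in the adult (limma adjusted p = 0.0728).

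Of 28 receptors and coreceptors in the table, 18 were tested, and the median log2 change was 0.21. Of the 18, 3 passed the test in the adult direction and 4 in the E16.5 direction, against 2.12% and 8.83% of all genes tested. All 7 calls were lost when any 1 of the E16.5 libraries was left out, and all but that of Tgfbr2 without adult replicate 1. The TGF-β receptors that were called were higher in the adult, as Tgfb2 was. Tgfbr2, the type II receptor that binds TGF-β, was at 31.4, 31.1 and 54.1 FPKM in the adult and 3.76, 3.82 and 5.56 FPKM at E16.5, 8.87-fold higher in the adult (log2 change 2.86, SE 0.47, limma adjusted p = 0.0149). Tgfbr3, or betaglycan, the coreceptor that presents TGF-β2 to Tgfbr2, was at 76.1, 69.3 and 74.9 FPKM in the adult and 31.3, 31.3 and 32.8 FPKM at E16.5, 2.31-fold higher (log2 change 1.18, SE 0.29, limma adjusted p = 0.0414). Neither gene overlapped between the ages, as was so in this direction for 7.39% of all genes tested. The partner kinase Tgfbr1 was at 7.47 ± 2.43 FPKM in the adult and 6.58 ± 2.47 FPKM at E16.5 (± SD, with n = 3 each), with overlap, and was not called. Tgfbr2 kept its call in 14 of 18 alternative settings and Tgfbr3 in 9.

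Egfr, the receptor of Hbegf, was at 12.1, 3.23 and 11.3 FPKM in the adult and listed at 0 in all 3 E16.5 libraries (limma adjusted p = 0.0321). The call rests on these listed zeros, which can be failed estimates, and no fold is given against them. Erbb4, the other receptor that binds Hbegf, was at 6.36, 15.4 and 2.33 FPKM in the adult and 5.11, 2.52 and 3.83 FPKM at E16.5 and was not called.

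The receptors that were higher at E16.5 were Pdgfra, Nrp2, Itga6 and Acvr2b. Pdgfra, the receptor of PDGF-A and a marker of stroma and oligodendrocyte precursors, was at 18.4, 34.9 and 29.7 FPKM at E16.5 and 2.93, 2.2 and 5.91 FPKM in the adult (log2 change -2.65, limma adjusted p = 0.0296). Nrp2, a VEGF and semaphorin coreceptor, was at 7.29 to 9.01 FPKM at E16.5 and at 0 to 0.644 FPKM in the adult. Itga6, an integrin subunit that takes part in Mdk binding, was at 5.13 to 8.41 FPKM and at 0 to 0.456 FPKM, and Acvr2b, a type II activin receptor, at 6.03 to 11.9 FPKM and at 0 to 1.35 FPKM. For Nrp2, Itga6 and Acvr2b at least 1 adult library was listed at 0, and these calls held in 9, 9 and 6 of 18 alternative settings.

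Among the receptors described whatever their values, Lrp1, an endocytic receptor that binds midkine and many other ligands, had the highest mean of the list over the 6 libraries. It was at 159, 138 and 139 FPKM in the adult and 48.5, 41.4 and 98.4 FPKM at E16.5, with no overlap, and missed the threshold (log2 change 1.30, limma adjusted p = 0.0636). Kdr, the main signalling receptor of VEGF-A, was at 12.3 to 36.7 FPKM at E16.5 and 0.435 to 7.75 FPKM in the adult, again with no overlap and no call (log2 change -2.60, limma adjusted p = 0.0809). Over all genes tested, 7.39% had every adult value above every E16.5 value, as Lrp1 had, and 31.0% had it below, as Kdr had. Flt1, which binds both VEGFs, and Ptprz1, the phosphatase receptor of Mdk and Ptn, were under the filter, at no more than 0.836 FPKM and 2.67 FPKM in any library. Pdgfrb, Acvr2a and Acvr1b were at 0 to 5.54, 0.0596 to 4.65 and 3.46 to 11.2 FPKM over all libraries and were not called.

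**Figure D4:**
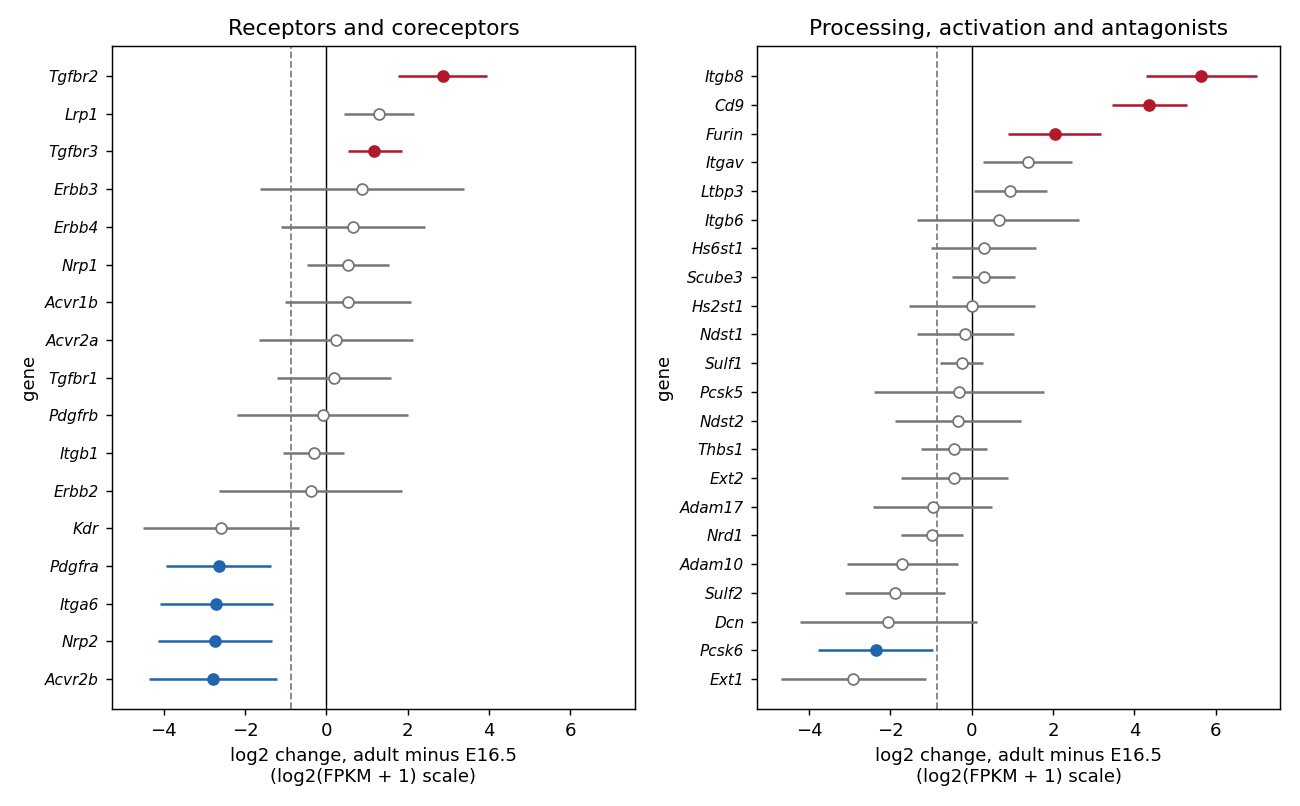
Log2 change, adult minus E16.5, on the log2(FPKM + 1) scale with 95% intervals from limma for the tested receptors (left) and the genes of processing, activation and antagonism (right), leaving out Egfr, which was listed at 0 in all E16.5 libraries. Red marks genes called higher in the adult, blue genes called higher at E16.5 and grey genes not called, and the dashed line is the median of all genes (-0.86). Itgb8 (5.65) and Cd9 (4.37) lie furthest to the right.

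Of 32 genes of latency, activation, shedding, heparan sulphate and antagonism in the table, 22 were tested, and the median log2 change was -0.28. Of the 22, 3 rose in the adult and 1 fell, against 2.12% and 8.83% of all genes tested. Itgb8, the β8 integrin subunit that pairs with αv and activates latent TGF-β, was at 132, 138 and 124 FPKM in the adult and 4.19, 1.92 and 0.211 FPKM at E16.5. Its 3 adult values lay within a narrow range and far above the others. The means were 131 ± 6.88 and 2.11 ± 1.99 FPKM (SD, n = 3 each), 62.3-fold higher in the adult (log2 change 5.65, SE 0.59, limma adjusted p = 0.00385). The E16.5 values differed among themselves, so that the ratio was 123-fold without E16.5 replicate 1 and 43.0-fold to 64.0-fold without any other library. Its partner Itgav, named after its values were seen, was at 16.2, 25.1 and 20.1 FPKM in the adult and 9.37, 6.24 and 6.2 FPKM at E16.5. It had no overlap, as had 7.39% of all genes tested in this direction, and no call (limma adjusted p = 0.0972).

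Cd9, a tetraspanin that binds the membrane precursor of Hbegf and is also found on many secretory epithelia, was at 118, 226 and 161 FPKM in the adult and 8.78, 7.54 and 4.94 FPKM at E16.5. It was 23.8-fold higher in the adult (log2 change 4.37, SE 0.40, limma adjusted p = 0.00256). Other genes share 5.67% of the 50-base stretches of its transcripts. Furin, the protease that cuts TGF-β precursors, was at 39.9, 76.2 and 110 FPKM in the adult and 19.4, 21.2 and 10.2 FPKM at E16.5 (4.45-fold higher, log2 change 2.04, SE 0.49, limma adjusted p = 0.0414). Itgb8 and Cd9 were called in all 18 alternative settings and Furin in 7, and with 1 library left out the call of Furin held only without adult replicate 1. Pcsk6, a related protease that cuts precursors of the same superfamily, was higher at E16.5, at 7.38, 4.45 and 2.52 FPKM, against 0.194 FPKM in adult replicate 2 and listed zeros in the other adult libraries, and this call held in 6 of 18 settings and in none that left out a library. Sulf1, an extracellular enzyme that trims heparan sulphate, had the highest mean of the list at both ages, 280 to 376 FPKM in the adult and 347 to 406 FPKM at E16.5, and its log2 change of -0.25 (95% interval -0.78 to 0.28) was not called.

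Of 28 genes of signal transduction and response in the table, 25 were tested, the median log2 change being -0.77. None was higher in the adult (3 at an unadjusted p under 0.05 in limma) and 2 fell, against 2.12% and 8.83% of all genes tested. The 2 were Tgif1, a corepressor of SMADs, at 6.01 to 13.7 FPKM at E16.5, and Egln3, a hypoxia-inducible prolyl hydroxylase, at 4.45 to 12.2 FPKM. Both were listed at 0 in adult replicates 1 and 3 and were under 1 FPKM in adult replicate 2, and both lost the call without adult replicate 1 or any 1 of the E16.5 libraries. Epas1, a hypoxia-inducible factor with the highest mean of the list over the 6 libraries, was at 97.5, 151 and 202 FPKM in the adult and 49.9, 66.1 and 111 FPKM at E16.5 and was not called (limma adjusted p = 0.145), and at E16.5 its mean of 75.8 FPKM was below that of Hif1a, 89.2 FPKM. Pmepa1, a textbook response gene of TGF-β named after its values were seen, was at 38.7, 33.3 and 15.2 FPKM in the adult and 6.5, 7.59 and 8.25 FPKM at E16.5. It had no overlap, as had 7.39% of all genes tested in this direction, and no call (limma adjusted p = 0.0662). Of other response genes of TGF-β, Smad7, Skil and Tgfbi overlapped between the ages and were not called. The SMADs that carry the TGF-β signal, Smad2, Smad3 and Smad4, overlapped between the ages, and Smad3 and Smad4 were at 24.3 ± 9.48 and 32.0 ± 13.1 FPKM in the adult and 28.7 ± 7.61 and 38.9 ± 1.88 FPKM at E16.5 (± SD, with n = 3 each).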

How the data were processed

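TRAP mRNA of ChP was measured in 3 adult and 3 E16.5 samples of mouse, grouped by their labels. The authors aligned single-end reads of 50 bases to mm10 with STAR 2.4.0 and calculated the deposited FPKM by means of Cuffquant, a part of Cufflinks. The gene annotation it used and any scaling between samples are not given in the sources used here. The authors' own read counts and test were not used here. Depth had to be read from steps among low FPKM in 2527 genes with 1 transcript, and reads carry no molecular identifiers, so that read numbers cover counting error only.

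The 10 growth factors, the 4 pathway lists and the 9 marker lists were chosen with earlier results of these data known. Genes with a mean above 1 FPKM (11601) entered a limma fit (limma 3.58.1, R 4.3.3) of log2(FPKM + 1) on age, adult minus E16.5, whose prior variance followed mean intensity and which had no covariate, and p was adjusted by Benjamini-Hochberg over all of them. A log2 change on this scale understates the change of low genes. No mean or fold is given for an age with a listed 0. The test was tried on simulated data. Named genes were all 10 growth factors and 13 fixed receptors. Each pathway list gave up to 4 called genes per direction and the gene with the highest mean over the 6 samples. Each called growth factor gave the 3 genes with the most similar pattern. The 2 markers of highest mean level were named for some of the marker lists and not for all. Other genes were named outside these rules, among them markers at 0 in all libraries, Map2, Foxj1, Hif1a, Skil, Tgfbi and the SMADs. Those marked so in the text were named after their values were seen. Some listed genes are not reported here by name. Of the marker lists, motile cilia and cell cycle are given among the closing observations. Coordinates are from GENCODE M21 (mm10) and promoter windows from RefSeq (GRCm38.p6). The 18 alternatives were 2 pseudocounts, 2 filters, 4 scalings, limma without trend and with array weights, a replicate block, an adjusted p of 0.01, and each library left out.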

Additional observations from a re-analysis of the deposited data

How the results depend on the processing

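Over the 18 alternatives the 7 tested growth factors were recomputed, and 109 of the values kept their direction and their side of the threshold, 14 lost the call (12 of Tgfb3 and 2 of Mdk), 1 gained it and 2 changed sign. Tgfb2 was the 1 growth factor called higher in the adult in all 18. Mdk lost its call without E16.5 replicate 1 (adjusted p = 0.0503) and without E16.5 replicate 2 (0.0559). Vegfb gained one when libraries were rescaled to the same sum (adjusted p = 0.0201). Pdgfa changed sign, from -0.32 to 0.01 (median-ratio scaling) and 0.09 (quantile normalization), and was called in neither.

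The number of growth factors higher at E16.5 fell from 2 to 1 with pseudocounts of 0.1 and 0.01, without a filter, with median-ratio scaling, with quantile normalization and at an adjusted p of 0.01, and was 0 to 2 with 1 library left out. For other ligands the counts of 0 became 1 for the adult (quantile normalization) and 1 for E16.5 (same sum), and were 0 to 1 in each direction with 1 library left out. Receptors higher in the adult (3) were 0 at an adjusted p of 0.01 and 0 to 3 with 1 library left out. Receptors higher at E16.5 (4) were 1 with either pseudocount, 0 with quantile normalization, 0 at an adjusted p of 0.01, and 0 to 5 with 1 library left out. Processing and antagonist genes higher at E16.5 (1) were 0 with the pseudocount of 0.01, median-ratio scaling, quantile normalization and the adjusted p of 0.01, 2 without trend and with array weights, 3 with a filter of FPKM above 1 in at least 3 samples and with the same sum without Mir6236, 7 with the same sum, and 0 to 3 with 1 library left out. Signal and target genes higher in the adult (0) were 1 with median-ratio scaling, 2 with quantile normalization, 2 with array weights and 0 to 2 with 1 library left out, and those higher at E16.5 (2) were 0 with the pseudocount of 0.01, quantile normalization and the adjusted p of 0.01, 7 with the same sum and 0 to 5 with 1 library left out. The causes were not tested.

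Samples of both ages share replicate numbers, but no label pairs them beyond the number. Deviations of same-numbered samples correlated at 0.000895, 0.0439 and 0.015, each under 0.1, and those of differently numbered samples at -0.0292 to 0.0135. With 3 samples per age and no batch given, such values cannot exclude a shared batch. With the replicate number as a block, 1 growth factor was higher in the adult and 1 at E16.5, receptors gave 1 and 0, processing and antagonist genes higher at E16.5 gave 0 and signal and target genes higher at E16.5 gave 0, while over all genes 112 were higher in the adult and 452 at E16.5, against 246 and 1024 without it.

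Over all genes, calls higher in the adult and at E16.5 numbered 348 and 660 with median-ratio scaling (34.5% adult, against 19.4%), 119 and 3238 with the same sum (3.54%), 569 and 504 with quantile normalization (53.0%), 158 and 949 without trend, 56 and 132 at an adjusted p of 0.01 (29.8%), and 27 to 357 and 16 to 1704 with 1 library left out, lowest without E16.5 replicate 2. Depth limits what the adult libraries show: 1 read in the Mdk transcript was worth 0.133 to 0.379 FPKM there, so that differences among low adult values rest on few reads.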

Other observations

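The 12 markers of motile cilia, which ciliated ependyma and ChP epithelium share and among which Foxj1 drives the Cre of these mice, summed to 394, 532 and 436 FPKM in adult replicates 1, 2 and 3 and to 2400, 2410 and 2060 FPKM in E16.5 replicates 1, 2 and 3, beside the same direction in Mdk. Of the 10 tested, 6 were higher at E16.5, against 8.83% of all genes tested. None was higher in the adult (0 also at an unadjusted p under 0.05 in limma), and Spag6l was listed at 0 in all 6 libraries. The 12 cell cycle genes summed to 26.6, 35.7 and 49.9 FPKM in the adult and to 56.6, 95.8 and 107 FPKM at E16.5, with 7 tested, 1 called higher at E16.5 and Ccnb1 at 0 in all. Of the 14 markers of ChP epithelium, all tested, 6 were higher in the adult and 2 higher at E16.5, against 2.12% and 8.83% of all genes tested. Ttr is among the 6, and its call rests on zeros listed in all 3 E16.5 libraries, which can be failed estimates. The part of these cells in the levels of the growth factors was not tested.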
